A study of Rattus norvegicus with 6 samples.

Results

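The sirtuins are a family of enzymes that use NAD+ to remove acetyl and other acyl groups from lysines of histones and of many other proteins. Of the 7 sirtuin gene symbols looked up, 6 label a row of the deposited gene table, and these 6 rows, among 35291 genes, are described here. They are Sirt2, Sirt3, Sirt4, Sirt5, Sirt6 and Sirt7, and their rows were taken by symbol. The family was chosen with earlier results of these data known. Sirt1 was not analysed here.

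The values come from RNA-Seq of whole testis from adult male Sprague-Dawley rats, an outbred strain, with 3 diabetic and 3 non-diabetic animals (the controls). The diabetic rats were fed a high-fat diet and then received 1 intraperitoneal injection of streptozotocin, a toxin of pancreatic beta cells, at 35 mg/kg, whereas the non-diabetic rats received citrate buffer. Testes were taken 8 weeks after the injection, and only rats with lasting high blood glucose were kept in the diabetic group. The exact age of the rats and the diet of the non-diabetic rats are not given in the sources used here, so diet, drug and diabetes cannot be told apart in this comparison. The question addressed by this comparison is how the testis transcriptome differs after 8 weeks of diabetes. Each library represents 1 rat. The extraction text of the labels describes selection of poly(A) RNA but also names a poly(A)- fraction and adipose tissue, while the same libraries are labelled for circular, long non-coding and messenger RNA, so whether the FPKM count poly(A) RNA alone is not settled.

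The sirtuins work in different parts of the cell. Sirt2 acts mainly in the cytoplasm, where it deacetylates tubulin, Sirt3, Sirt4 and Sirt5 are mitochondrial, Sirt6 is bound to chromatin and Sirt7 is found in the nucleolus. Because every reaction consumes NAD+ and releases nicotinamide, sirtuin activity is tied to NAD+ synthesis and to the other enzymes that break NAD+ down, such as poly(ADP-ribose) polymerases. Activity also depends on NAD+ and protein levels, which mRNA values do not measure.

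The levels are given as FPKM, fragments scaled by transcript length and library size, as the authors calculated them. Since FPKM are divided by gene length, different sirtuins can be ordered within a sample. Reads per library are unknown, but relative depth could be read from genes of less than 1 FPKM and ranged from 0.893 to 1.09 around a mean of 1 over the 6 libraries. No library stood apart: correlations of log2 values across genes were 0.958 to 0.965 within groups and 0.957 to 0.966 between groups. In the check of the tissue, the summed level of 7 elongating spermatid markers was between 14734 and 17151 FPKM, and the 4 epididymis markers together reached at most 0.413 FPKM in any rat. Testis markers were therefore abundant and epididymal ones were nearly absent.

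Sirt5 was the only sirtuin gene whose groups did not overlap, with a mean level 39.5% higher in diabetic than in non-diabetic testes. The other 5 sirtuin genes differed by 0.702% to 6.99% between the group means, and their groups overlapped. Of the 6 genes, 1 had an unadjusted p-value below 0.05 from limma, against 7.46% of the 20338 genes tested, and it was higher in diabetes, as were 2.47% of all genes at that threshold. Separate groups were found for 1 of the 6, against 13.0% of all genes tested, and 4.56% of all genes were separate with the diabetic rats above. No sirtuin gene had an adjusted p-value below 0.05 over all genes tested, a threshold that limma placed 0.0344% of all genes past. The study's criterion, a log2 fold change of 1 or more in either direction together with an unadjusted p-value below 0.05, was met by none of the 6 and by 1.24% of all genes. All 6 genes passed the filter on low values, which asked for 0.5 FPKM or more as the mean of the 6 rats.

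**Figure D1:**
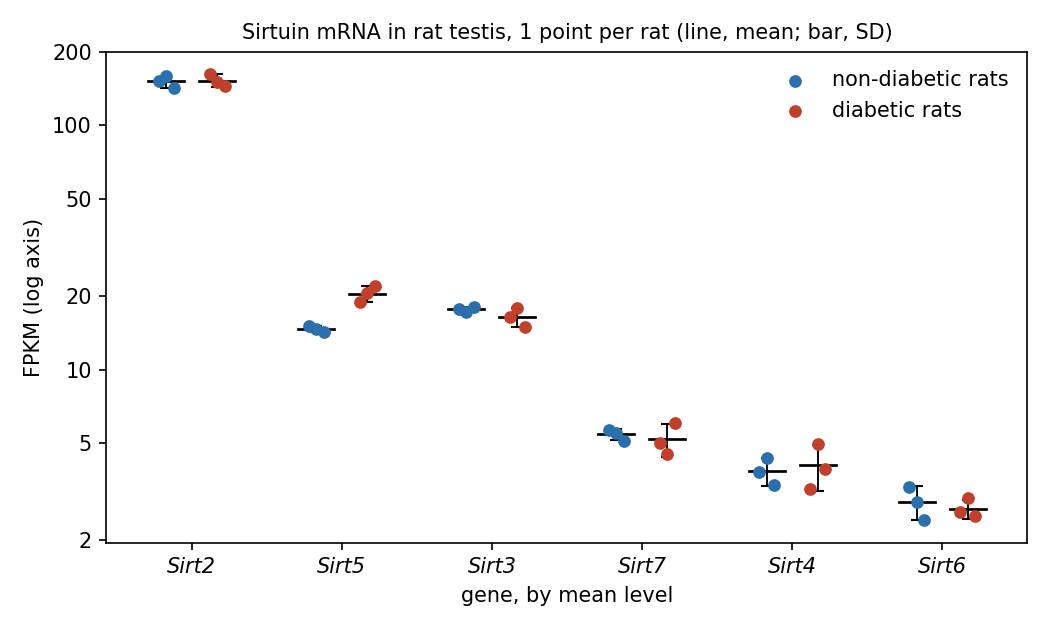
FPKM of the 6 sirtuin genes on a log axis, with 1 point per rat, controls in blue and diabetic rats in red; lines mark the mean and bars the SD of 3 rats. The red points of Sirt5 lie at 18.9 to 21.9 FPKM and its blue points at 14.3 to 15.1 FPKM, whereas the colours overlap for the other 5 genes.

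The mitochondrial sirtuins are described first. Sirt5 removes succinyl, malonyl and glutaryl groups from lysines of mitochondrial enzymes, among them enzymes of the urea cycle and of fatty acid oxidation. Its row is ENSRNOG00000017866, and the levels were 18.9, 20.6 and 21.9 FPKM in the diabetic group and 15.1, 14.6 and 14.3 FPKM in the controls. The lowest diabetic rat thus lay above the highest non-diabetic rat. Mean Sirt5 levels were 20.4 ± 1.53 FPKM in diabetes and 14.7 ± 0.428 FPKM in controls (SD, n = 3 each). This gave a log2 fold change of 0.48 ± 0.078 (SE), whose 95% interval from 0.29 to 0.66 corresponds to a fold between 1.22 and 1.58. The unadjusted p-value from limma was 0.000437, which ranked 45th among the 20338 genes, and became 0.190 after adjustment over all of them. An exact two-sided permutation test gave p = 0.1, the smallest that 3 rats against 3 allow. Over all genes tested, down to a mean of 0.5 FPKM, 10.7% had an absolute log2 fold change at least as large. Genes at the level of Sirt5 were not counted separately. The spread between rats was small, with coefficients of variation of 7.47% in the diabetic group and 2.92% in the non-diabetic group.

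Across 6 fits that each left out 1 rat, the log2 fold change of Sirt5 stayed between 0.42 and 0.53, while limma gave adjusted p-values between 0.227 and 0.543. Among protein-coding genes only it was 0.0560. Nol7, a nucleolar protein gene that lies next to Sirt5 in RefSeq (assembly GRCr8), was at 13.6 FPKM in both groups, with a log2 fold change of 0.0040. No other RefSeq gene overlaps Sirt5 in that assembly. The files hold gene totals, so a change in the use of Sirt5 transcripts could not be examined.

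Sirt3 is the main deacetylase of mitochondria, with enzymes of respiration, fatty acid oxidation and superoxide removal among its targets. Its levels were 16.5, 17.8 and 14.9 FPKM in the diabetic group and 17.7, 17.1 and 18.0 FPKM in the controls. Although the diabetic rats held the lowest values, one of them lay within the non-diabetic range. The log2 fold change was -0.11 with a 95% interval from -0.30 to 0.089 (limma, adjusted p = 0.852), so the fold lay between 0.810 and 1.06.

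Sirt4, which inhibits glutamate dehydrogenase and acts as a lipoamidase and ADP-ribosyltransferase, was at 3.25, 4.97 and 3.92 FPKM in the diabetic group and at 3.81, 4.35 and 3.36 FPKM in the controls. The lowest and the highest Sirt4 value both belonged to diabetic rats, and the log2 fold change was 0.062 with a 95% interval from -0.36 to 0.48 (limma, adjusted p = 0.970). This interval includes the estimate for Sirt5, so it does not leave out a change of that size in Sirt4.

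Sirt5 and Sirt3 were expressed at similar levels, and their order differed between the groups. Sirt5 was above Sirt3 in 3 of 3 diabetic rats and below it in 3 of 3 controls. The ratio of Sirt5 to Sirt3 FPKM was 1.14, 1.15 and 1.47 in the diabetic group and 0.854, 0.852 and 0.791 in the controls. A ratio within a library does not depend on the scaling between libraries. It was chosen after the values were seen and is given as a description. The summed level of the 3 mitochondrial sirtuins was 40.9 ± 2.38 FPKM in the diabetic group and 36.1 ± 0.479 FPKM in the controls (SD, n = 3 each), and this difference contains that of Sirt5.

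**Figure D2:**
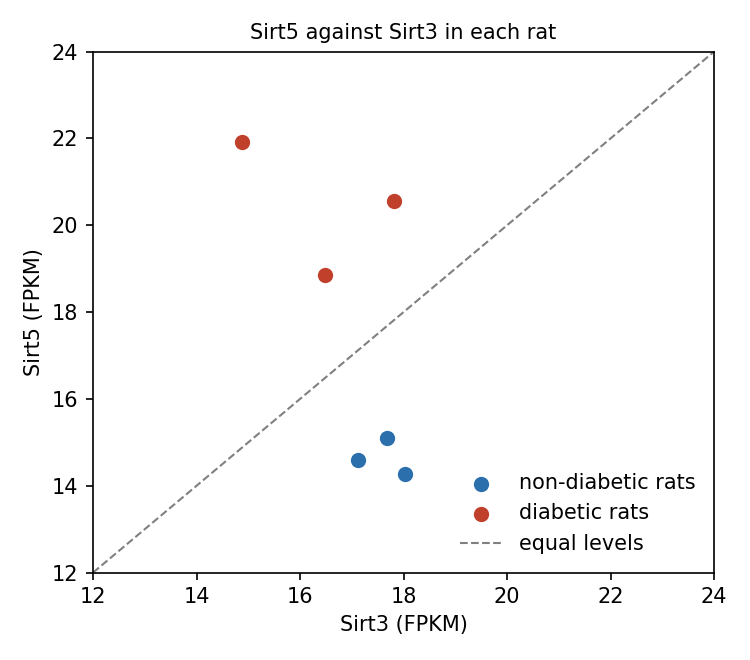
Level of Sirt5 against level of Sirt3 (FPKM, linear axes) in each of the 6 rats, with a dashed line where the levels are equal. The 3 diabetic rats (red) lie above the line, at ratios of 1.14 to 1.47, and the 3 controls (blue) below it, at 0.791 to 0.854.

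Sirt2, the cytoplasmic member, had by far the highest level of the 6 sirtuin genes. In RefSeq (assembly GRCr8) a protein-coding gene, LOC103689966, overlaps Sirt2, and its symbol labels no row. The Sirt2 row also has the decimals of a sum of several values. The part of either in the Sirt2 level was not tested. Its level was 162, 150 and 144 FPKM in the diabetic group and 151, 159 and 142 FPKM in the controls, higher than that of 97.6% of all genes tested. Diabetic testes averaged 152 ± 9.24 FPKM and controls 151 ± 8.50 FPKM (SD, n = 3 each). For Sirt2 the log2 fold change was 0.0099 with a 95% interval from -0.15 to 0.17 (limma, adjusted p = 0.990), which places the fold between 0.901 and 1.13. Among the 6 genes this was the narrowest interval. Sirt2 made up between 74.5% and 78.2% of the summed FPKM of the 6 sirtuin genes in each rat.

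The nuclear members are Sirt6 and Sirt7. Sirt6, which deacetylates histone H3 at telomeres and at glycolytic genes, was at 2.60, 2.97 and 2.52 FPKM in the diabetic group and at 3.32, 2.88 and 2.42 FPKM in the controls. The diabetic values lay inside the non-diabetic range. Its log2 fold change was -0.081 with a 95% interval from -0.45 to 0.29 (limma, adjusted p = 0.949). Sirt7, which promotes transcription of ribosomal RNA genes, was at 4.99, 4.51 and 6.03 FPKM in the diabetic group and at 5.68, 5.48 and 5.11 FPKM in the controls. The diabetic rats spanned the whole non-diabetic range. The log2 fold change of Sirt7 was -0.075 with a 95% interval from -0.38 to 0.23 (limma, adjusted p = 0.942).

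**Figure D3:**
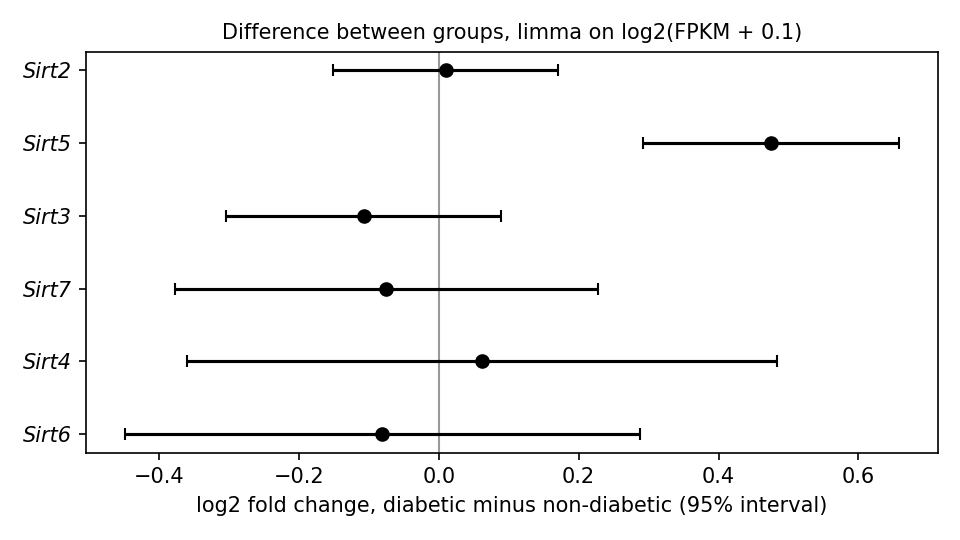
Log2 fold change of each sirtuin gene between diabetic and non-diabetic testes (points) with the 95% interval from limma (bars), ordered by mean level. The interval of Sirt5 runs from 0.29 to 0.66 and leaves out 0, and those of the other 5 genes include it.

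Ordered by mean level over the 6 rats, the sirtuins were Sirt2, Sirt5, Sirt3, Sirt7, Sirt4 and Sirt6, and Sirt2 was 53.3 ± 6.84 times as high as Sirt6 in the controls (SD, n = 3). Sirt2 exceeded the next gene in 6 of 6 rats, by 8.63 times on average, and Sirt3 exceeded Sirt7 in 6 of 6 rats, by 3.21 times. Sirt7 and Sirt4 were close, with Sirt7 higher in 5 of 6 rats and overlapping ranges. Sirt4 was above Sirt6 in 6 of 6 rats, although the lowest Sirt4 value, 3.25 FPKM, lay below the highest Sirt6 value, 3.32 FPKM. Over the 6 rats the ranges of Sirt5 and Sirt3 overlapped too, but within each group their order was the same in every rat. Sirt7 and Sirt4 were thus the neighbours that did not differ beyond their spread, by overlapping ranges and by a mixed order within a group.

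The gene whose pattern over the 6 rats was most like that of each sirtuin was taken from 11005 protein-coding genes averaging 1 FPKM or more, by Pearson's r of log2 values. These correlations rest on 6 samples and the best of many genes, and are given as a description. For Sirt5 this gene was Lck, which encodes a Src-family kinase known from T cells, with r = 0.990. Lck was at 5.21, 7.18 and 8.00 FPKM in the diabetic group and at 3.51, 2.73 and 2.58 FPKM in the controls. The Lck groups did not overlap, and the log2 fold change was 1.17 (limma, adjusted p = 0.190). The nearest genes of the others were Gpkow for Sirt2, Derl3 for Sirt3, Fahd1 for Sirt4, B4galt7 for Sirt6 and Ddx4 for Sirt7, with r between 0.984 and 0.996, none of them with separate groups.

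In bulk tissue, fewer cells of a type and less RNA per cell cannot be told apart. All 7 Leydig cell markers were lower in diabetic testes at an unadjusted p-value below 0.05 from limma, as were 4.99% of all genes tested. Groups were separate for 6 of the 7 and overlapped for Hsd17b3. Over all genes tested, 8.42% were separate with the diabetic rats below. The summed level of the 7 was 36.0 to 64.8 FPKM in the diabetic group and 109 to 145 FPKM in the controls. Of these markers, only Cyp17a1 had an adjusted p-value below 0.05 (0.0415 from limma). The summed level of 6 macrophage markers was 29.2 to 34.1 FPKM in the diabetic group and 36.6 to 41.2 FPKM in the controls. Cd74 made up most of that gap, at 3.72 ± 0.515 FPKM and 8.02 ± 1.64 FPKM (SD, n = 3 each), and Csf1r and Cd68 were also separate, whereas Mrc1, the most abundant of the 6, overlapped between the groups, as did Cd163 and Adgre1. The 7 spermatogonial markers summed to 57.7 to 68.9 FPKM in the diabetic group and 53.7 to 57.4 FPKM in the controls. Uchl1 made up most of that sum, at 47.5 and 37.3 FPKM, whereas Kit of the same list was lower in all diabetic rats, with a log2 fold change of -0.30. The summed markers of Sertoli cells, spermatocytes, round spermatids and elongating spermatids overlapped between the groups, as did those of peritubular and smooth muscle cells, endothelium, red blood cells and epididymis. The part of these marker differences in the values of Sirt5 and of the genes described next was not tested.

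NAD+ is the cosubstrate of all sirtuins. The list for its synthesis also held the NAD kinase genes Nadk and Nadk2 and the transporter gene Slc25a51. It included higher and lower genes in diabetic testes, none of which passed the adjusted threshold. Of the 22 listed genes, 11 reached the filter, 2 were higher and 2 lower in diabetic testes at an unadjusted p-value below 0.05 (over all genes, 2.47% and 4.99%), and 0 had an adjusted p-value below 0.05 from limma. Nampt, the rate-limiting enzyme of NAD+ salvage from nicotinamide, was at 6.09, 6.03 and 7.68 FPKM in the diabetic group and at 8.58, 7.99 and 8.01 FPKM in the controls. All diabetic rats lay below the controls, with a log2 fold change of -0.32 (limma, adjusted p = 0.627). Pnp, a purine nucleoside phosphorylase that also cleaves nicotinamide riboside, had a log2 fold change of -0.39 and overlapping groups. Ido1, the first enzyme of tryptophan breakdown towards NAD+, was at 0.961 ± 0.0882 FPKM in the diabetic group and 0.474 ± 0.0715 FPKM in the controls (SD, n = 3 each), with a log2 fold change of 0.89 (limma, adjusted p = 0.506). The control mean of Ido1 lay below the filter of 0.5 FPKM, which this gene passed only through its diabetic values. Ido1 is 1 of the 2 higher genes counted above, so that count depends on the filter. Nadsyn1, which makes NAD+ from its deamidated precursor, was higher in all diabetic rats, with a log2 fold change of 0.58 (limma, adjusted p = 0.627). Nadk2, the mitochondrial NAD kinase and the most abundant gene of the list, was at 16.1 and 16.5 FPKM. The median log2 fold change of the 11 genes was -0.034, against -0.021 over all genes tested. The unadjusted p-value of Pnp from limma, 0.0443, rose to 0.0578 with median-ratio scaling, and with 1 rat left out those of Pnp, Nadsyn1 and Nampt reached up to 0.139, 0.102 and 0.0920.

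Among genes for other consumers of NAD+ or nicotinamide, 19 of 22 reached the filter, 3 were lower at an unadjusted p-value below 0.05 and 0 were higher (over all genes, 4.99% and 2.47%). Parp9 and Parp14, a pair of interferon-inducible members of the poly(ADP-ribose) polymerase family, had the smallest p-values. Parp9 was at 1.46, 1.55 and 1.47 FPKM in the diabetic group and at 2.87, 2.76 and 3.23 FPKM in the controls (log2 fold change -0.94; limma, adjusted p = 0.152). Parp14 was at 0.640 ± 0.0182 FPKM in the diabetic group and 1.42 ± 0.102 FPKM in the controls (SD, n = 3 each), with a log2 fold change of -1.04 (limma, adjusted p = 0.279). Aox1, the aldehyde oxidase that oxidises methylated nicotinamide, had a log2 fold change of -0.46 (limma, adjusted p = 0.354). Parp6 was at 19.1 FPKM in the diabetic group and 21.3 FPKM in the controls, with an unadjusted p-value of 0.0510 from limma. Art3, the most abundant gene of the list, was at 78.8 and 76.3 FPKM. Separate groups were seen for 8 of these 19 genes, 7 with the diabetic rats below and 1 with them above. Over all genes tested 13.0% were separate, 8.42% with the diabetic rats below and 4.56% above. The median log2 fold change was -0.11.

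For mitochondrial proteins deacylated by sirtuins, values of single genes are given, with no count over the list. Idh2, the NADPH-producing isocitrate dehydrogenase of mitochondria, was at 1.48, 0.997 and 1.46 FPKM in the diabetic group and at 2.83, 3.14 and 2.97 FPKM in the controls. The Idh2 groups did not overlap, and the log2 fold change was -1.15 (limma, adjusted p = 0.190). Echs1 and Hadh, which act in successive steps of fatty acid oxidation, had log2 fold changes of -0.94 and -0.42 (limma, adjusted p = 0.273 and 0.404). Acadl, an acyl-CoA dehydrogenase of the same pathway, had a log2 fold change of -0.39 (limma, adjusted p = 0.415). The Leydig cell markers were lower in the same rats (a sum of 36.0 to 64.8 FPKM against 109 to 145 FPKM), and their part in these values was not tested. Uqcrfs1, a subunit of respiratory complex III was at 419 ± 36.7 FPKM and 392 ± 4.62 FPKM (SD, n = 3 each).

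Nuclear and cytosolic sirtuin substrates are likewise given as single genes. Nbn, Pgam1, Kat5 and Xrcc5 had log2 fold changes of 0.17, -0.15, 0.11 and -0.22, with unadjusted p-values between 0.0734 and 0.121 from limma, and Ldha was at 357 and 346 FPKM. For regulators and partners of sirtuins, 16 rows were tested, among which the symbol Senp1 is repeated. None of these rows had an unadjusted p-value below 0.05 from limma, against 7.46% of all genes, and their median log2 fold change was -0.020. The lowest p-value in that list, 0.0663, was that of Ccnd1, the cyclin D1 gene, at 0.663 ± 0.0927 FPKM in the diabetic group and 1.02 ± 0.176 FPKM in the controls (SD, n = 3 each). Ccar2, which encodes an inhibitor of SIRT1, was at 23.3 and 21.9 FPKM, with overlapping groups. Setd7, Elavl1 and Psme3 had log2 fold changes of -0.44, -0.10 and -0.067, also with overlapping groups.

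The zinc-dependent histone deacetylases, which remove acetyl groups without NAD+, offered a comparison by chemistry. None of the 11 genes had an unadjusted p-value below 0.05 from limma, against 7.46% of all genes tested. Their median log2 fold change was 0.010. Hdac4 had the lowest p-value, 0.0532 from limma, with 6.42 ± 0.271 FPKM in the diabetic group and 7.38 ± 0.332 FPKM in the controls (SD, n = 3 each). Only Hdac4 of the 11 had separate groups, with the diabetic rats below, whereas 13.0% of all genes tested had separate groups. Hdac10 and Hdac8 had log2 fold changes of 0.36 and -0.41 and overlapping groups. Hdac1, the most abundant, was at 70.9 and 66.1 FPKM.

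**Figure D4:**
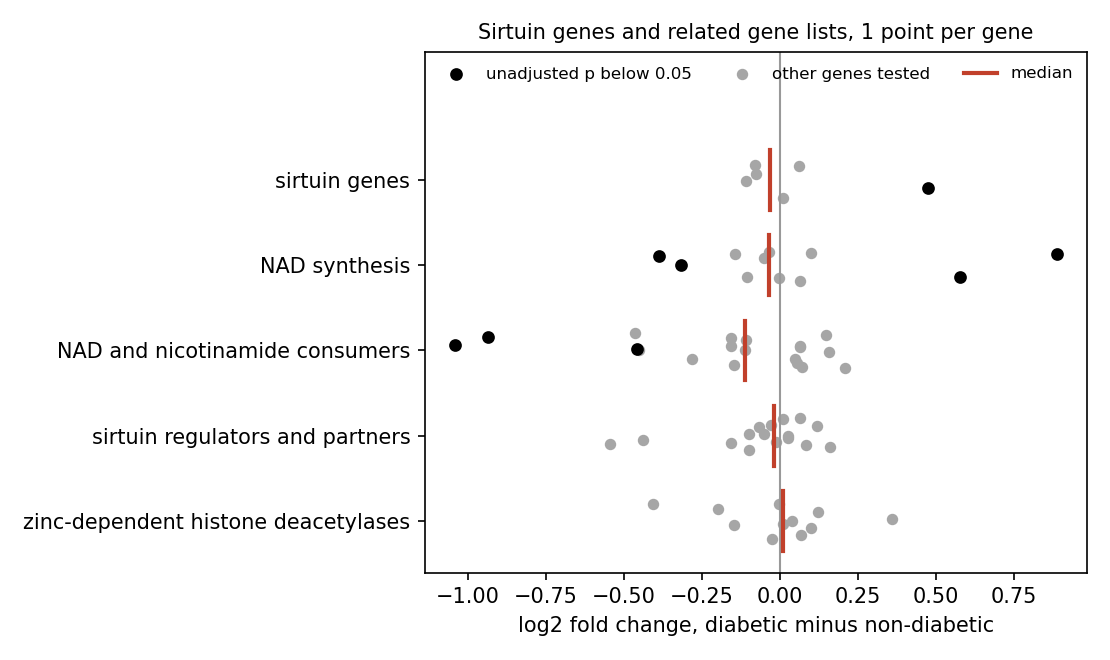
Log2 fold change between diabetic and non-diabetic testes for the sirtuin genes and 4 related gene lists, with 1 point per gene tested, black at an unadjusted p-value from limma under 0.05, and a red line at each list's median. The 3 black points of the other NAD+ and nicotinamide consumers all lie below 0, and Sirt5 is the only black point among the sirtuins.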

How the data were processed

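RNA-Seq of 6 rat testes was analysed, 3 per group. The sample labels gave each group and replicate number. The authors used FastQC for read quality, BWA for rRNA reads and STAR for alignment, assembled transcripts with StringTie and deposited FPKM per gene. Build, annotation and tool versions are not given in the sources used here, so no coordinates are printed. The study's methods name DESeq2, which needs counts and was not run on these FPKM. FPKM were transformed to log2(FPKM + 0.1), which understates changes of low genes, and genes averaging 0.5 FPKM or more were kept (20338 of 35291). Groups were compared with limma 3.58.1 in R 4.3.3 (lmFit, eBayes with a mean-variance trend), two-sided, with Benjamini-Hochberg adjustment over all genes tested. Single genes were also compared by the exact permutation test of scipy 1.17.1. The steps were tested on simulated data.

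The 6 sirtuin genes and the related lists were chosen with earlier results of these data known. From each related list, the 4 genes with the smallest p-values and the most abundant gene were named, with the gene most correlated with each sirtuin. Nol7, Uchl1 and Kit were named after their values were seen. Some genes of the 2 substrate lists are not reported here and were taken out after their values were seen, so no count or median over these lists is given, and their genes are named from what remained. Listed symbols were matched to the table directly or through RefSeq synonyms (assembly GRCr8). No mapped sample was left out. The rows of Sirt2 and Sirt4 hold values with more than 6 decimals, as sums of several values do, and those of the other 4 do not. Replicate numbers name different rats, and nothing states a shared batch, so the comparison has no block. P-values rest on the spread between these 6 rats, and those from limma also draw on the spread of the other genes tested. The alternatives were 2 other pseudocounts, no filter or a mean of at least 1 FPKM, TPM or median-ratio scaling, other eBayes settings, a replicate block, protein-coding genes only, rows with the same symbol summed, and leaving out each rat.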

Additional observations from a re-analysis of the deposited data

How the results depend on the processing

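The log2 fold change of Sirt5 was 0.45 to 0.50 and its adjusted p-value from limma 0.0560 to 0.275 under the 10 alternatives that kept all rats and had no block, and Sirt5 was the 1 sirtuin gene with an unadjusted p-value below 0.05 in all 17 alternatives. With the replicate number as a block its adjusted p-value was 0.411. Deviations of same-numbered rats from their group means correlated at 0.106, 0.0153 and 0.0979, and those of differently numbered rats at -0.126 to 0.0318. The highest of these values, 0.106 and 0.0979, thus belonged to same-numbered rats. Whether the numbers mark a shared batch was not tested, and the main comparison has no block because no source states one. The block changed the call of no sirtuin gene and gave 4 genes of the whole table with an adjusted p-value below 0.05, against 7 without it. The count was 3 with no filter, 12 for eBayes without the trend, 36 among protein-coding genes only, 15 with rows of the same symbol summed, and 0 to 14 with 1 rat left out. Without non-diabetic replicate 3, limma gave 0 such genes but 1502 with an unadjusted p-value under 0.05. The sign of 4 sirtuin genes turned when 1 rat was left out, with ranges of -0.038 to 0.049 for Sirt2, -0.094 to 0.20 for Sirt4, -0.19 to 0.026 for Sirt6 and -0.19 to 0.018 for Sirt7, whereas Sirt3 ran from -0.17 to -0.040. Leaving out 1 rat also turned Ldha (-0.0066 to 0.10), Gpkow (-0.041 to 0.066), Fahd1 (-0.13 to 0.12), B4galt7 (-0.15 to 0.040) and Ddx4 (-0.070 to 0.016). Median-ratio scaling turned Fahd1 to 0.026 and Ddx4 to 0.0065. Parp9, Idh2 and Lck had adjusted p-values of 0.0288, 0.0371 and 0.0383 from limma among protein-coding genes only, and Parp14 one of 0.0425 with eBayes without the trend. With a pseudocount of 1 the log2 fold changes of Ido1, Nadsyn1 and Parp14 shrank to 0.41, 0.33 and -0.56, and without diabetic replicate 2 that of Pnp was -0.24. Unadjusted p-values from limma of Pnp passed 0.05 with eBayes without the trend (0.0702) and the block (0.0623), as did that of Nadsyn1 with the block (0.0565). Fewer genes were tested among protein-coding genes, 12242. For the other changes the cause was not tested. Depth in reads is unknown, and with 3 rats per group the intervals of Sirt4 and Sirt6 stay wide.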
